A study of Mus musculus with 4 samples.

Results

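In this experiment, the MC38 tumor sections were read spot by spot, and macrophage-rich spots that also held transcripts of cytotoxic T lymphocytes (CTLs) were compared with macrophage-rich spots that held none. A spot is a capture area of the Visium array that takes up RNA from a small patch of tissue, so it can hold several cells of different types. Spots were selected on measured values. A macrophage-marked spot had at least 1 UMI (1 counted transcript molecule) of each of Ptprc, Adgre1, Itgam, Cd68 and Cxcl9, a CTL-macrophage spot had in addition at least 1 UMI of Thy1 and of Cd8a, and a macrophage-only spot had no UMI of either. Of 11947 tissue spots, 3413 were macrophage-marked, 330 of these were CTL-macrophage spots and 1467 were macrophage-only spots. The remaining macrophage-marked spots carried 1 of the T cell markers, with Thy1 without Cd8a in 1304 and Cd8a without Thy1 in 312.

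The sections came from 4 tumors in female F1 hybrid mice aged 8 to 12 weeks. The CC075F1 hosts (C57BL/6J x CC075/UncJ, 2 sections) were of a strain among the study's responders to PD-1 blockade. The CC080F1 hosts (C57BL/6J x CC080/TauUncJ, 2 sections) were of a strain among its non-responders. All mice received 500000 MC38 cells, a C57BL/6 colon carcinoma line, under the skin. All were given a single dose of 200 µg of the isotype control antibody 2A3 when tumors measured 75 to 110 mm3, and tumors were taken 48 h later and fresh frozen. No anti-PD-1 treated section was used here. The sections within a strain are labelled as biological replicates, and the labels used here do not say whether the 4 sections shared a slide.

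Macrophages stimulated by interferon gamma (IFN-γ), a cytokine made by activated CTLs and NK cells, secrete Cxcl9, a chemokine that draws in T cells carrying its receptor Cxcr3. IFN-γ induces a set of GTPases and the MHC class II genes, which present antigen to CD4 T cells. In solid tumors these exchanges take place in tissue that also differs in vessels, stroma and oxygen supply. Hypoxic cells switch on glucose transporters, glycolytic enzymes and mitochondrial regulators through hypoxia-inducible factor. Thy1 is a T cell surface protein in the mouse and is also carried by some fibroblasts and other stromal cells, whereas Cd8a marks CD8 T cells and some dendritic cells.

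The CTL-macrophage class was larger in CC075F1, with 114 and 146 spots per section, than in CC080F1, with 40 and 30. They made up 15.8% (95% exact binomial interval 13.2 to 18.7) and 12.8% (10.9 to 14.8) of macrophage-marked spots in CC075F1 and 6.45% (4.65 to 8.68) and 3.23% (2.19 to 4.57) in CC080F1, intervals that cover counting error only. Macrophage-only spots numbered 309 and 505 in CC075F1 and 282 and 371 in CC080F1. Each section held 82594649 to 146460975 UMIs over its tissue spots. The median CTL-macrophage spot held 37996 UMIs in CC075F1 replicate 1, 53902.5 in CC075F1 replicate 2, 39642 in CC080F1 replicate 1 and 43887 in CC080F1 replicate 2. Macrophage-only spots were weighted to the same spot depth in 10 strata within each section, which gave matched medians of 37981, 53258, 39777 and 43553 UMIs. In CC080F1 replicate 1, a stratum had no CTL-macrophage spot, and 250 of the 282 macrophage-only spots entered the fit. CC075F1 replicate 2 supplied the most UMIs, 7687962 in its CTL-macrophage spots against 1325092 in those of CC080F1 replicate 2, so it weighs most in a fit of counts.

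The T cell content of the class was checked with genes that the selection did not use. At least 1 UMI of the CD3 chain genes Cd3d, Cd3e or Cd3g was found in 71.9% and 81.5% of CTL-macrophage spots in CC075F1 and in 35.0% and 43.3% in CC080F1. The shares in matched macrophage-only spots were 47.4%, 54.2%, 23.5% and 24.2%, lower in every section. In CC080F1 replicate 1 the 95% exact interval of the class (20.6 to 51.7%) included the macrophage-only share, and many macrophage-only spots also held CD3 UMIs. Both T cell markers were at exactly 1 UMI in 65 of 114, 50 of 146, 16 of 40 and 4 of 30 CTL-macrophage spots, and both were at 2 or more in 11, 22, 2 and 2. The class is therefore described by its UMIs, and a T cell was not identified in each spot. Spots in which skin, muscle and fat genes gave at least 1% of UMIs numbered 29, all in CC075F1 replicate 2, and 1 of them was a CTL-macrophage spot.

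The genes of the rule are given as a description. Cxcl9, at 1 UMI or more in both classes by selection, stood at 393 CPM (UMIs of the gene scaled to the UMI total of the spots) in CTL-macrophage spots and 216 CPM in matched macrophage-only spots of CC075F1 replicate 1. The same pairs were 560 and 252 CPM in CC075F1 replicate 2, 113 and 61.0 CPM in CC080F1 replicate 1, and 245 and 140 CPM in CC080F1 replicate 2. Cxcl9 was thus higher in the CTL-macrophage spots of every section, and the CC080F1 sections were lower than the CC075F1 sections in both classes. The macrophage surface gene Adgre1 (F4/80) stood at 76.7 and 83.5, 62.6 and 49.8, 73.1 and 72.2, and 70.9 and 69.1 CPM in the same order, with no common direction. Itgam (CD11b) was lower in CTL-macrophage spots in 3 of 4 sections, and Cd68, a lysosomal protein of macrophages, was higher in 3 of 4. Ptprc (CD45), carried by all leukocytes, was higher in CTL-macrophage spots of every section, at 53.9 and 48.5, 48.1 and 36.3, 54.0 and 47.5, and 58.9 and 47.2 CPM.

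Across the other genes, CTL-macrophage spots were compared with matched macrophage-only spots in edgeR's quasi-likelihood test with the section as a block. Of 10631 genes tested, 407 were higher and 352 lower in CTL-macrophage spots at an adjusted p (Benjamini-Hochberg) under 0.05, a background of 3.83% and 3.31% of genes. With scaling by library size alone in place of TMM, the counts were 738 higher and 200 lower. The direction was the same in all 4 sections for 633 of the 759 called genes (83.4%), against 24.3% of all genes tested. For the other called genes the sections disagreed. The calls were made from these same sections, so their agreement is a description and not a replication. In a limma fit on log2 CPM in which each section weighed equally, 281 genes were higher and 185 lower, 2.64% and 1.74% of those tested, and 461 of the 759 calls were also made there. Calls below were made by edgeR, and for this comparison the number of each list's calls that limma also made is given beside it. Folds are log2 fold changes ± SE over 4 pairs of libraries, with adjusted p from edgeR. In spots, more cells of a type and more RNA per cell cannot be told apart.

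**Figure D1:**
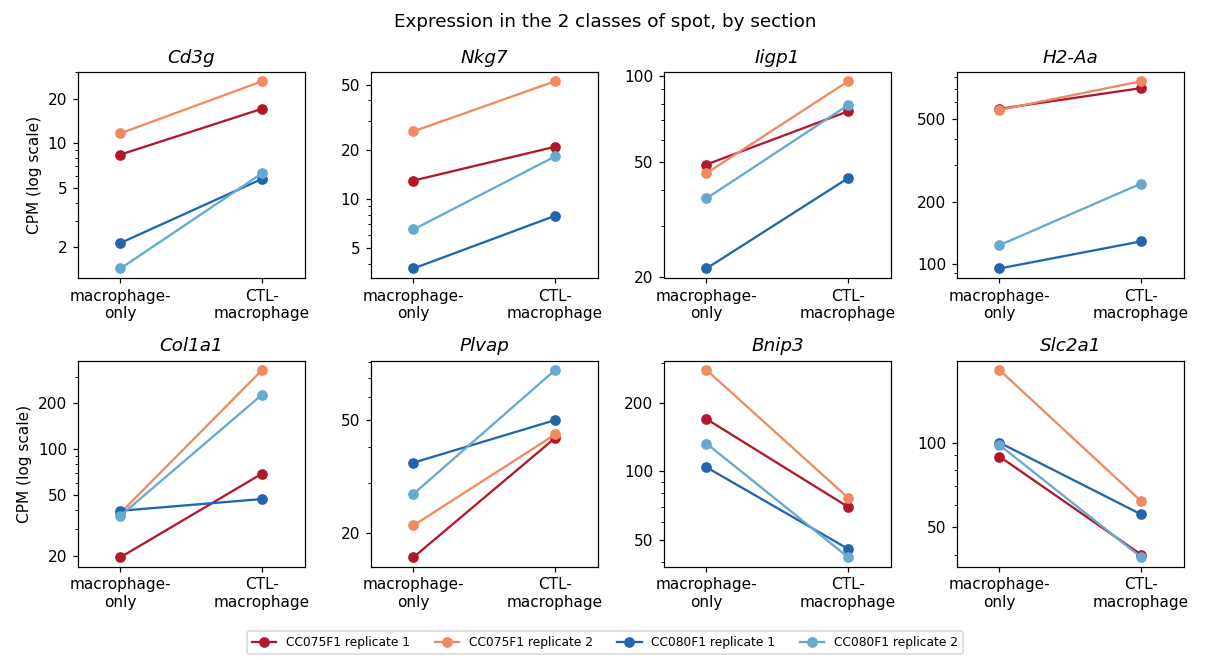
CPM on a log scale of 8 genes in depth-matched macrophage-only and in CTL-macrophage spots, with a line for each of the 4 sections. Cd3g, Nkg7, Iigp1, H2-Aa, Col1a1 and Plvap rise and Bnip3 and Slc2a1 fall from left to right in every section, and Col1a1 rises least in CC080F1 replicate 1 (39.6 to 47.2 CPM).

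T cell receptor genes were higher in the CTL-macrophage spots. All 8 tested members of the T cell list rose by edgeR, 7 of them also by limma, with a median log2 fold change of 1.00 against -0.01 over all genes tested. Cd3g, a chain of the CD3 signalling complex, was at 17.1, 26.2, 5.77 and 6.30 CPM in CTL-macrophage spots of CC075F1 replicates 1 and 2 and CC080F1 replicates 1 and 2, and at 8.40, 11.7, 2.14 and 1.44 CPM in macrophage-only spots. It was higher in each pair, from lower levels in CC080F1 (1.15 ± 0.13, adjusted p = 3.52e-06). Trbc2, a constant region of the T cell receptor beta chain, rose by 1.04 ± 0.13 (adjusted p = 1.13e-05), and Trac, the alpha chain constant region, by 1.00 ± 0.16 (adjusted p = 2.82e-04). The cytotoxic list was divided, with 6 of 12 tested members higher, 3 of them also by limma. Nkg7, a granule membrane protein of CTLs and NK cells, was at 20.8, 52.5, 7.87 and 18.2 CPM against 12.9, 25.9, 3.74 and 6.48 CPM (0.96 ± 0.10, adjusted p = 1.33e-06). Xcl1, a chemokine that attracts cross-presenting dendritic cells, rose by 1.54 ± 0.22 (adjusted p = 8.71e-05). The granzymes were less even. Gzmb, here chosen after its values were seen, was at 2.50, 21.1, 0.525 and 11.2 CPM against 1.72, 9.70, 2.14 and 9.37 CPM. It was called by edgeR (0.88 ± 0.19, adjusted p = 0.00424) but not by limma (adjusted p = 0.897), and it was lower in the CTL-macrophage spots of CC080F1 replicate 1. Gzma was likewise called by edgeR (0.88 ± 0.18, adjusted p = 0.00248) and not by limma (adjusted p = 0.429). Ccl5, a chemokine found in nearly every spot of both classes, did not pass (-0.20 ± 0.06, adjusted p = 0.0506). Of 5 tested checkpoint receptors 2 rose, 1 of them also by limma. Pdcd1, which encodes PD-1, was called by both. It was at 8.12, 6.01, 4.72 and 6.30 CPM against 3.88, 2.88, 1.07 and 1.44 CPM (1.21 ± 0.21, adjusted p = 6.12e-04). Il2rb, a receptor chain for IL-2 and IL-15, rose by 1.29 ± 0.14 (adjusted p = 3.19e-06), and 3 of 5 tested homing and cytokine receptor genes were called by both tools. In the lists of other lymphocytes few members passed the count filter, so few could be called. The 1 tested B cell gene was not called. Of 2 tested CD4 and regulatory T cell genes 1 was higher by edgeR and 0 by limma. Of 3 tested NK cell genes, in a list of 9, 2 were higher (median 0.72), 1 of them also by limma, including Klrd1 (0.93 ± 0.13, adjusted p = 7.50e-05). The summed NK list was higher in CTL-macrophage spots of every section, at 21.0, 46.8, 7.87 and 27.3 CPM against 17.5, 25.0, 5.35 and 15.1 CPM. Its median log2 ratio was -0.01 in CC075F1 replicate 1 and above 0 in the other sections. The part of NK cells in the cytotoxic genes was not tested.

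Genes induced by IFN-γ were higher in CTL-macrophage spots. Of 12 tested effector genes, most of them GTPases of the GBP and IRG families that act against intracellular microbes, 11 rose and 1 fell, with a median log2 fold change of 0.54, and limma called 10 higher and none lower. Iigp1, an IRG GTPase, was at 75.2, 95.7, 44.1 and 79.0 CPM against 49.1, 45.8, 21.4 and 37.5 CPM (0.90 ± 0.08, adjusted p = 1.25e-07). Igtp rose from 64.4, 98.3, 27.3 and 63.4 CPM to 86.0, 154, 44.6 and 90.9 CPM (0.57 ± 0.06, adjusted p = 1.73e-06). Gbp7 rose by 0.49 ± 0.06 (adjusted p = 7.40e-06). The member that fell, Nos2, named after its values were seen, makes nitric oxide in activated macrophages. It was at 6.46, 4.22, 6.30 and 3.50 CPM against 13.1, 8.45, 8.55 and 2.88 CPM, lower in 3 of 4 sections, and its call (-0.87 ± 0.17, adjusted p = 0.00227) was not made by limma (adjusted p = 0.218). Of the receptor and signalling genes 5 of 10 rose, 2 of them also by limma. The transcription factor Irf8 rose by 0.46 ± 0.08 (adjusted p = 5.61e-04), and the receptor gene Ifngr1 did not pass (0.03 ± 0.05, adjusted p = 0.874). Among T cell attracting chemokines 3 of 8 rose, 2 of them also by limma. Ccl8, a chemokine of macrophages, rose by 1.10 ± 0.10 (adjusted p = 4.81e-07). Cxcl10, a second ligand of Cxcr3, was at 255, 446, 293 and 545 CPM against 263, 309, 179 and 352 CPM (0.42 ± 0.08, adjusted p = 0.00185) and was not higher in CC075F1 replicate 1. The study's 18-gene IFN-γ signature, less its rule genes, had 7 of 11 tested members higher, 5 of them also by limma, and none lower (median 0.47), but shares members with the lists above.

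The 2 IFN-γ induced members with the smallest p whose promoter held a match are shown with their RefSeq promoter sequence (GRCm38.p6, + strand, the 250 bases before the gene's start), as an example of the sequence that the list's name refers to. Capitals mark the gamma-activated site TTCNNNGAA and the core of the interferon-stimulated response element (a pair of GAAA blocks 2 bases apart), both searched on both strands. Igtp has 1 match of each, starting 45 and 34 bases before the start, and Gbp7 has 2 matches of the first and 1 of the second.
Igtp, chr11:58199306-58199555: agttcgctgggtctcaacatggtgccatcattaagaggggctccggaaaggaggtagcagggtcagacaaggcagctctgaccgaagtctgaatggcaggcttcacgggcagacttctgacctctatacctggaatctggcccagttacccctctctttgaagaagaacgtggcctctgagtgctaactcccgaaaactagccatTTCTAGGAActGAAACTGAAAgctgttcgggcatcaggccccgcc
Gbp7, chr3:142530086-142530335: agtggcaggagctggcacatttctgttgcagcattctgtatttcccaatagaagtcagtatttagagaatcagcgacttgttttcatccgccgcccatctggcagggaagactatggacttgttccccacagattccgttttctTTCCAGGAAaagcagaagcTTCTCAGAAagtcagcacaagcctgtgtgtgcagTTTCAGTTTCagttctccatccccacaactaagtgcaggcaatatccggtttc
In windows of 300 bases (250 before to 50 after the start), the first motif was found in 3 and the second in 6 of 7 tested effector genes with a RefSeq promoter. The shares were 8.30% and 3.44% of all 32851 promoters, and 9.55% and 3.99% of all 27025 genes counted with a match at any start. A match is a description of letters and not a measured site.

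Antigen presentation genes were split by class. Of 8 tested MHC class II genes 7 rose, 6 of them also by limma, with a median of 0.50. H2-Aa was at 704, 760, 129 and 244 CPM against 559, 552, 95.1 and 123 CPM (0.48 ± 0.07, adjusted p = 4.79e-05). H2-Ab1 rose by 0.63 ± 0.09 (adjusted p = 6.69e-05) and H2-Eb1 by 0.50 ± 0.07 (adjusted p = 7.64e-05), and H2-DMa, which loads peptide onto class II molecules, by 0.55 ± 0.06 (adjusted p = 2.19e-06). Their levels were lower in both classes of spot in the CC080F1 sections than in the CC075F1 sections, and they were higher in CTL-macrophage spots within all 4 sections. Of 11 tested MHC class I genes 3 rose, 1 of them also by limma (median 0.12). B2m, the class I light chain, was at 3023, 4147, 2123 and 2543 CPM against 3064, 4534, 2055 and 2332 CPM (0.00 ± 0.05, adjusted p = 0.994), and H2-K1 was at 0.00 ± 0.05 (adjusted p = 0.997).

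Of 15 tested macrophage identity genes that the rule did not use, 3 rose by both tools, with a median of 0.10. Csf1r, the receptor that macrophages need to survive, was at 157, 159, 129 and 157 CPM against 138, 122, 126 and 131 CPM (0.24 ± 0.05, adjusted p = 0.00702), while Lyz2 (0.10 ± 0.05, adjusted p = 0.383) and Apoe (0.06 ± 0.06, adjusted p = 0.748) did not pass. Of 8 tested genes of Spp1-type macrophages 2 were lower, 1 of them also by limma. Hmox1, which degrades heme, was at 20.6, 48.4, 17.3 and 58.1 CPM against 36.2, 98.8, 31.0 and 52.6 CPM (-0.83 ± 0.10, adjusted p = 1.96e-05), lower in 3 of 4 sections. Spp1 itself passed by edgeR (-0.33 ± 0.10, adjusted p = 0.0397) and not by limma (adjusted p = 0.207). Of 4 tested monocyte genes 3 were higher by both tools. Plac8 was at 9.17, 72.1, 14.7 and 101 CPM against 4.53, 22.3, 8.55 and 33.1 CPM (1.56 ± 0.10, adjusted p = 3.28e-09). Ly6c2, the surface marker of inflammatory monocytes, rose by 1.39 ± 0.14 (adjusted p = 1.36e-06), and Ccr2, the receptor that brings monocytes into tissue, by 0.44 ± 0.08 (adjusted p = 0.00109). Of 13 tested proliferation genes 2 were higher, 1 of them also by limma.

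**Figure D2:**
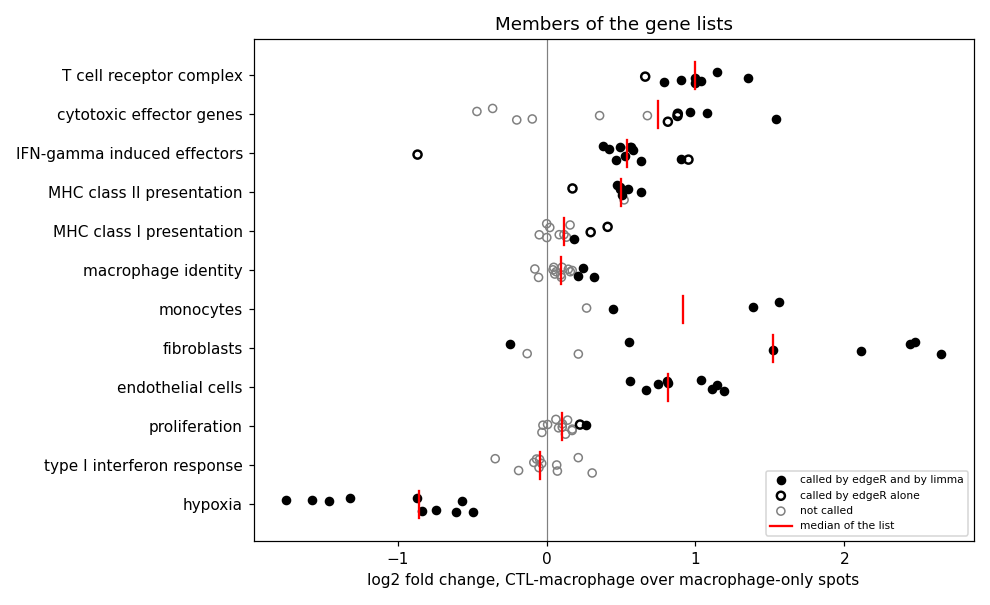
Log2 fold change (CTL-macrophage over macrophage-only) of every tested member of 12 gene lists, with the list median as a red line. All 10 tested hypoxia genes lie to the left of 0 and all 9 endothelial genes to the right, each called by both tools, while the type I interferon genes scatter about 0 with none called.

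The largest increases were in stromal genes. Of 9 tested fibroblast genes 6 rose and 1 fell by both tools, with a median of 1.52. Col1a1, a chain of type I collagen, was at 69.4, 331, 47.2 and 229 CPM against 19.6, 38.3, 39.6 and 36.7 CPM (2.47 ± 0.20, adjusted p = 1.15e-07). The CTL-macrophage values were above every macrophage-only value, but in CC080F1 replicate 1 the pair lay close together. Col1a2, the partner chain, rose by 2.65 ± 0.16 (adjusted p = 2.67e-09), Bgn, a matrix proteoglycan, by 2.44 ± 0.16 (adjusted p = 5.00e-09), and Postn, a matrix protein of activated fibroblasts, by 2.11 ± 0.13 (adjusted p = 2.74e-09). Outside the list, the matrix inhibitor of calcification Mgp (1.96 ± 0.09, adjusted p = 7.06e-11), the complement inhibitor Serping1 (2.02 ± 0.12, adjusted p = 1.60e-09), the smooth muscle actin Acta2 (1.82 ± 0.16, adjusted p = 2.92e-07) and the pericyte and fibroblast protein Cd248 (1.70 ± 0.16, adjusted p = 6.40e-07) were among the 10 largest increases. The list was not uniform. Col3a1, at 320 to 1775 CPM in all libraries, did not pass (0.21 ± 0.12, adjusted p = 0.377), nor did Pdgfra, a platelet-derived growth factor receptor of fibroblasts (-0.13 ± 0.07, adjusted p = 0.481). The member that fell was the proteoglycan Dcn (-0.25 ± 0.05, adjusted p = 0.00521), named after its values were seen. The summed list stood at 1670, 2168, 2550 and 2955 CPM in CTL-macrophage spots against 1870, 1020, 2406 and 2144 CPM in macrophage-only spots. It was thus lower in the CTL-macrophage spots of CC075F1 replicate 1, and the pair lay close together in CC080F1 replicate 1. Endothelial genes rose as a whole, with 9 of 9 tested called by both tools (median 0.81). Plvap, a protein of capillary openings, was at 43.1, 44.3, 49.8 and 74.8 CPM against 16.4, 21.2, 35.3 and 27.4 CPM (1.11 ± 0.10, adjusted p = 4.29e-07). Esam, an endothelial junction protein, rose by 1.19 ± 0.10 (adjusted p = 1.93e-07), the VEGF receptor gene Kdr by 1.15 ± 0.13 (adjusted p = 4.61e-06) and Egfl7 by 0.81 ± 0.10 (adjusted p = 1.14e-05).

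Hypoxia genes fell. All 10 tested members of the list were lower by both tools, with a median of -0.85. Bnip3, a mitochondrial protein that promotes mitophagy, was at 69.8, 76.5, 45.6 and 42.0 CPM against 170, 279, 104 and 133 CPM (-1.57 ± 0.08, adjusted p = 3.57e-10). No CTL-macrophage value reached the lowest macrophage-only value. Slc2a1, the glucose transporter GLUT1, was at 40.0, 61.9, 55.6 and 39.2 CPM against 89.2, 181, 99.96 and 98.0 CPM (-1.32 ± 0.08, adjusted p = 1.97e-09), again with no overlap. Ankrd37 fell by 1.46 on the log2 scale (SE 0.11, adjusted p = 2.42e-08), and Ldha, which makes lactate, by 0.49 (SE 0.05, adjusted p = 1.09e-06). Outside the list, Ero1l, an oxidase of the endoplasmic reticulum (-1.14 ± 0.10, adjusted p = 1.93e-07), the lipoprotein receptor Vldlr (-1.16 ± 0.11, adjusted p = 4.29e-07), the cytochrome c oxidase subunit Cox6a2 (-1.14 ± 0.11, adjusted p = 4.58e-07) and the stress-induced pseudokinase Trib3 (-0.96 ± 0.07, adjusted p = 5.28e-08) were among the 10 largest decreases.

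The RefSeq promoters of the 2 hypoxia genes with the smallest p are shown with the letters of the hypoxia response core, ACGTG on either strand, in capitals. Bnip3 holds CACGTG, which reads ACGTG on both strands, 107 to 108 bases before its start, and Slc2a1 holds 1 match at 36 bases. Sequences are the 250 bases before the start in GRCm38.p6, Bnip3 from the - strand and Slc2a1 from the + strand.
Bnip3, chr7:138909507-138909756: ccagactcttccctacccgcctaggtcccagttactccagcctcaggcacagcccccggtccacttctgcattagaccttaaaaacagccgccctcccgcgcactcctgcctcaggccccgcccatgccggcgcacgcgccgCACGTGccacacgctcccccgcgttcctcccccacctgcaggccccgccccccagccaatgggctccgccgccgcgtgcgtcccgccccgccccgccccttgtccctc
Slc2a1, chr4:119108495-119108744: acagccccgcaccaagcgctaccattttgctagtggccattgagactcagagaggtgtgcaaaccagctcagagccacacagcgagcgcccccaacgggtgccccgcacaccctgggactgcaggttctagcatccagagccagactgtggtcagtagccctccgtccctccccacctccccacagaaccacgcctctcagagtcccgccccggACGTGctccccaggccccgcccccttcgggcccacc
The core was found in 8 of 9 tested hypoxia genes with a RefSeq promoter, 1 of 7 IFN-γ effector genes and none of 6 MHC class II genes. The share was 19.6% of all promoters of 300 bases, and 21.8% of all genes counted with a match at any start. These are counts of letters, and binding was not measured.

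Type I interferon genes showed no common change, with 0 of 11 tested called by edgeR, limma or DESeq2. In edgeR 2 were at an unadjusted p under 0.05. Bst2 (0.07 ± 0.05, adjusted p = 0.478) and Isg15 (0.07 ± 0.09, adjusted p = 0.811) were the most abundant. The sections disagreed on this list. Its median log2 ratio was -0.56 (CC075F1 replicate 1), 0.07 (CC075F1 replicate 2), 0.43 (CC080F1 replicate 1) and 0.42 (CC080F1 replicate 2). A strain difference of the list as a whole was not tested. A test of the difference in the class effect between strains called 1 gene of 11065, or 0.00904%. This was Rsad2 (viperin), an antiviral enzyme induced by interferon. In CC075F1 it was at 29.6 and 14.9 CPM in CTL-macrophage and 54.7 and 26.1 CPM in macrophage-only spots, lower in both sections. In CC080F1 it was at 55.6 and 74.8 CPM against 41.2 and 48.3 CPM, higher in both (difference -1.38 ± 0.16 on the log2 scale, adjusted p = 0.00242). The next gene by p, the matrix proteoglycan Lum, named after its values were seen, did not pass (2.41 ± 0.38, adjusted p = 0.0702). At an unadjusted p under 0.05 the test gave 252 of 11065 genes, a smaller share than the 0.05 that chance alone would give. With 2 sections a strain, most genes were not shown to differ or to be alike.

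Erythrocyte genes were lower by edgeR but the sections disagreed. Hba-a1, the alpha chain of hemoglobin, was at 8.33, 60.3, 20.5 and 14.7 CPM against 3.88, 185, 31.0 and 24.5 CPM (-1.39 ± 0.15, adjusted p = 3.05e-06). It was higher in the CTL-macrophage spots of CC075F1 replicate 1 and lower in the other 3 sections, and limma did not call it (adjusted p = 0.364).

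The macrophage-marked spots with a single T cell marker were compared with the same macrophage-only class, so the following values, all from edgeR, share their controls. Spots with Thy1 without Cd8a gave 616 genes higher and 518 lower of 12647 (4.87% and 4.10%). Spots with Cd8a without Thy1 gave 25 and 48 of 10449 (0.239% and 0.459%) from fewer spots. Thy1 alone marked 170 (replicate 1) and 346 (replicate 2) spots of CC075F1, against 277 and 511 of CC080F1. Cd8a alone marked 127 and 146 against 21 and 18, so most of its spots came from CC075F1 and its CC080F1 libraries rested on few. The part of spot number and strain make-up in the contrasts below was not tested. The fibroblast list had 6 of 10 members higher and 1 lower with a median of 1.06 in the first, and 4 of 9 higher with a median of 0.08 in the second. Col1a1 was 1.81 higher with Thy1 alone (adjusted p = 2.18e-11) and 0.60 higher with Cd8a alone (adjusted p = 0.00173), and Mgp was 1.58 and 0.55 higher. The T cell list had medians of 0.61 and 0.64, with 9 of 16 and 3 of 7 members higher. The hypoxia list was lower with either marker, in 10 of 11 and in 6 of 10 members (medians -0.52 and -0.38), and Bnip3 fell by 0.88 and 0.71 on the log2 scale. Endothelial genes were higher in 8 of 10 members with Thy1 alone and in 0 of 9 with Cd8a alone by edgeR (3 of 9 at an unadjusted p under 0.05, medians 0.50 and 0.19), and IFN-γ effectors in 9 of 15 and 1 of 11 with 1 lower in each (medians 0.26 and 0.19). Set directly against each other, Thy1-only and Cd8a-only spots differed in 4 of 12536 genes (0.0319%), all higher with Thy1 alone. These were Acta1 of skeletal muscle (3.42 ± 0.29, adjusted p = 0.00355), Col1a2 (1.74 ± 0.16, adjusted p = 0.00559), Bgn (adjusted p = 0.00648) and the matrix protein Sparc (0.46 ± 0.06, adjusted p = 0.0399), the last and the first named after their values were seen. For Bnip3 the direct difference was -0.06 (adjusted p = 0.934) and for Iigp1 0.05 (adjusted p = 0.964), and neither was shown to differ.

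**Figure D3:**
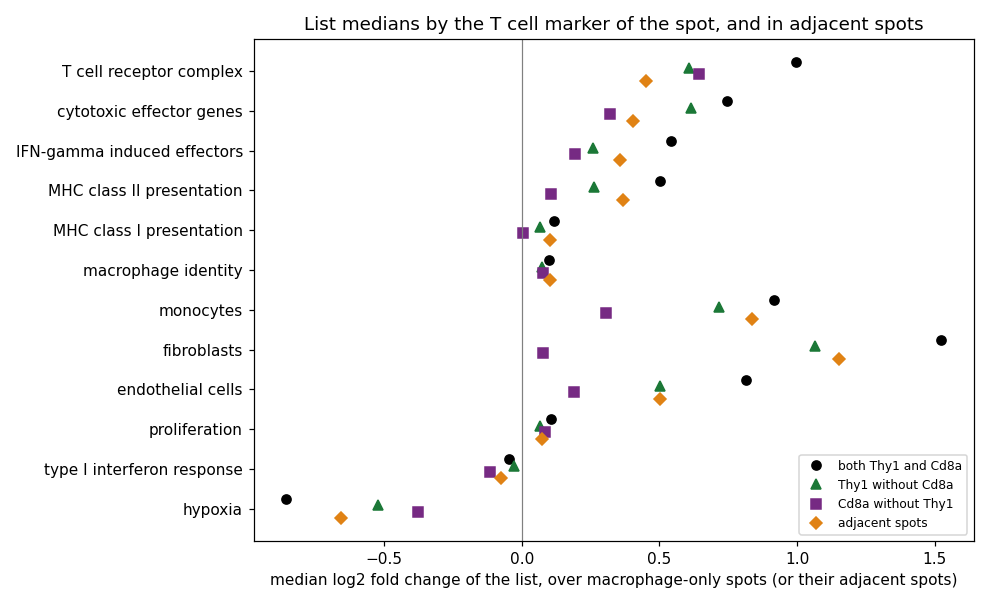
Median log2 fold change of 12 gene lists in macrophage-marked spots with both T cell markers, with Thy1 alone and with Cd8a alone, each over macrophage-only spots, and in the adjacent spots over those of macrophage-only spots. The fibroblast median is near 0 (0.08) with Cd8a alone and 1.06 to 1.52 elsewhere, while the hypoxia median is below 0 in all 4.

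The class comparison was repeated with macrophage-only spots matched also on other measures of the spot, an alternative chosen after seeing the data and fitted with edgeR. The depth strata were coarser in these fits, each being cut into parts by the other measure. Matched on steps to the tissue edge, 346 genes were higher and 297 lower of 10642 (3.25% and 2.79%), and matched on the summed UMIs of the fibroblast list, 379 and 300 of 10645 (3.56% and 2.82%). The hypoxia list remained lower in 10 of 10 members in both (medians -0.73 and -0.83), and the IFN-γ effectors were higher in 10 and 11 of 12 with 1 lower in each (medians 0.44 and 0.50). Endothelial genes were higher in 8 and 9 of 9. Col1a1 was still 2.05 higher after fibroblast matching (adjusted p = 4.90e-12). Matched macrophage-only spots of CC075F1 replicate 2 held a mean of 51.1 fibroblast UMIs against 91.5 in its CTL-macrophage spots. Those of CC080F1 replicate 2 held 117.2 against 141, so the match was incomplete in those sections. Most of the matched total came from Col3a1 and Dcn (means of 1133 and 542 CPM), neither called higher, with Col1a1 at 101 CPM. The match on the summed list therefore did not by itself hold fixed the level of the genes that rose.

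Most groups of CTL-macrophage spots were single spots. Joined over adjacent positions, they formed 96, 98, 38 and 25 groups, of which 83, 72, 36 and 20 were single spots, and the largest group held 4, 7, 2 and 2 spots. On average 5.26%, 11.7%, 1.67% and 5.56% of the spots adjacent to a CTL-macrophage spot were CTL-macrophage spots, against 4.61%, 3.32%, 1.85% and 1.22% around matched macrophage-only spots. The mean difference of 3.30 percentage points (SD 3.93, n = 4) did not pass the two-sided exact sign-flip test (p = 0.25), for which 4 sections allow a smallest p of 0.13. CTL-macrophage spots lay 9.57, 8.82, 6.88 and 8.27 grid steps from the nearest off-tissue position, and matched macrophage-only spots 12.9, 11.5, 6.72 and 11.1 steps. They were nearer to the edge in 3 of 4 sections, by 2.17 steps on average (SD 1.58), with the same exact p of 0.25.

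**Figure D4:**
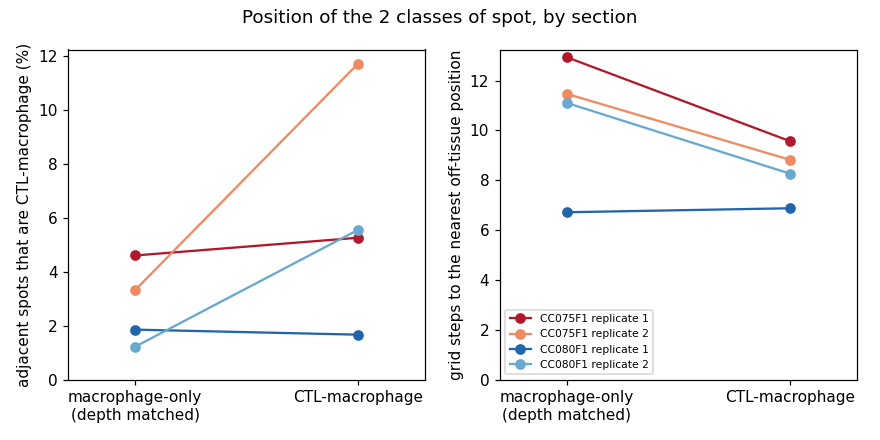
Share of adjacent spots that were CTL-macrophage spots (%, left) and mean grid steps to the nearest off-tissue position (right) for matched macrophage-only and CTL-macrophage spots, with a line per section. In both panels 3 sections move in one direction and CC080F1 replicate 1 stays nearly level (1.85% to 1.67% and 6.72 to 6.88 steps).

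The spots next to the selected ones were read as well. Spots of neither class that touched a CTL-macrophage spot (486 and 534 in CC075F1, 186 and 131 in CC080F1) were compared with depth-matched spots of neither class that touched a macrophage-only spot and no CTL-macrophage spot (772, 1242, 983 and 1202). Of 12439 genes, 450 were higher and 366 lower (3.62% and 2.94%), and limma called 271 and 221 (2.18% and 1.78%). The UMIs of the 7 rule genes decided which neighbours belonged to neither class, so their values are a description. Cxcl9 was higher beside CTL-macrophage spots in all 4 sections, with log2 ratios of 0.58, 0.78, 0.11 and 0.89. Thy1, with ratios of 0.57, 0.87, 0.22 and 1.26, and Cd8a, with 0.31, 0.34, 0.28 and 1.63, were also above 0 in each, as was Ptprc at 0.18 to 0.36. Adgre1, Itgam and Cd68 had ratios on both sides of 0.

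Hypoxia genes were also lower in the neighbours, while the calls in other lists varied with the neighbours used. The comparison was repeated with neighbours that held no Thy1 or Cd8a UMI, in which 75 genes were higher and 234 lower of 10839 (0.692% and 2.16%), and, chosen after seeing the data, with neighbours matched on steps to the tissue edge, with 239 and 186 of 12446 (1.92% and 1.49%). The edge match again used coarser depth strata. Neighbours without Thy1 and Cd8a UMIs are a subset selected against T cell transcripts, so the T cell list there is a description. The part of the smaller number of spots in the calls of the other lists was not tested. The hypoxia list was lower in 10 of 11 tested members (median -0.66, 10 also by limma), with Slc2a1 at -1.03 ± 0.05 (adjusted p = 1.10e-06) and Bnip3 at -1.18 ± 0.08 (adjusted p = 6.33e-06). It was lower in 10 of 10 without the T cell markers and in 10 of 11 matched on the edge. Endothelial genes were higher in 9 of 10 (median 0.50, 9 also by limma), but in 1 of 9 without the T cell markers (median 0.20) and 6 of 10 matched on the edge. Kdr stood at 0.23 (adjusted p = 0.801) and Plvap at 0.30 (adjusted p = 0.210) without the T cell markers. The T cell list was higher in 7 of 16 (median 0.45, 5 also by limma), but in 0 of 6 without the T cell markers by edgeR (2 at an unadjusted p under 0.05) and 3 of 16 matched on the edge. IFN-γ effectors were higher in 11 and lower in 1 of 14 (median 0.36, the same counts by limma), in 7 and 1 of 12 without the T cell markers and in 4 and 1 of 14 matched on the edge. MHC class II genes were higher in 6 of 8 (median 0.37, 5 also by limma), in 5 of 8 without the T cell markers and in 2 of 8 matched on the edge, where H2-Aa (adjusted p = 0.132), H2-Eb1 (adjusted p = 0.0770) and H2-Ab1 (adjusted p = 0.0501) did not pass. Fibroblast genes were higher in 6 and lower in 1 of 10 (median 1.15, the same counts by limma and matched on the edge), and in 4 and 1 of 9 without the T cell markers. Col1a1 stood at 1.64 ± 0.25 (adjusted p = 0.00170). Its log2 ratios were 1.01, 2.41, 0.10 and 2.15, so CC080F1 replicate 1 again showed little. The smallest p values among decreases included the heat shock gene Hspa1a (-1.94 ± 0.18, adjusted p = 8.69e-05) and among increases the elastin gene Eln (2.68 ± 0.24, adjusted p = 7.27e-05) and the collagen-associated Cthrc1 (2.27 ± 0.20, adjusted p = 7.27e-05). Acta1 was also called (2.59 ± 0.22, adjusted p = 5.18e-05) but rose in CC075F1 replicate 2 alone, the section with skin, muscle and fat spots, and limma did not call it (adjusted p = 0.745).

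CTL-macrophage spots of the strains were compared with each other over 2 sections each. The test called 4 of 10833 genes (0.0369%). H2-Eb1, an MHC class II beta chain, was at 770 and 710 CPM in CC075F1 and 63.7 and 138 CPM in CC080F1 (2.88 ± 0.38, adjusted p = 0.0155). Ifi202b, an interferon-inducible DNA sensor, had no UMI in either CC075F1 section and stood at 42.8 and 75.8 CPM in CC080F1, at least 104-fold higher taken against a floor of 3 UMIs per library (adjusted p = 1.93e-05). Fcrls, an Fc receptor-like protein, was at 19.46 and 23.96 CPM against 89.3 and 65.8 CPM (-1.84 ± 0.26, adjusted p = 0.0155), and the predicted gene Gm10260 was at 0.856 and 0.991 CPM against 10.7 and 25.0 CPM (-4.18 ± 0.57, adjusted p = 0.0155). The hosts of both strains had a C57BL/6J parent, whose alleles match the C57BL/6 reference. The part of poorer alignment of the other parent's alleles in these differences was not tested.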

How the data were processed

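Visium sections were read from 4 tumors. The authors sequenced each section and aligned the reads with Space Ranger 1.3.1 to GRCm38 (mm10), which wrote the deposited matrices of raw UMI counts per gene and spot; Seurat 5.0.1 is also named in the submitters' processing notes. Counts per spot were not normalised, and a UMI count of 0 can reflect depth. Only spots over tissue were used, with 32285 genes in the table.

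Spots were classed by the rule above at 1 UMI, a threshold at which ambient RNA cannot be told from expression in a single spot. The members and gene lists were chosen with earlier results of these data known. Within each section, spots of both classes were ranked by total UMIs into 10 strata, macrophage-only spots were weighted to the number of CTL-macrophage spots in each stratum, and UMIs were summed to 8 libraries and rounded to whole counts. The 7 rule genes were left out of the class fit. Summed counts were tested in edgeR 4.0.16 (filterByExpr, TMM, quasi-likelihood) with the section as a block, so that each tumor is its own control; a call is an adjusted p under 0.05. The labels do not tie same-numbered sections of the strains to each other. The sections are the replicates, spots are not. The SE was taken as the fold change over the square root of the F statistic. CPM values use the TMM factors, except for the rule genes, which are scaled to the UMI total of the spots. Alternatives included limma 3.58.1 on log2 CPM (prior count 2) and DESeq2 1.42.0. The fits were tested on simulated data.

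Genes named were, in the class fit, the 10 largest increases and decreases among calls of at least 10 CPM with 1 sign in all 4 sections; in each of the 32 lists up to 4 called members by p and the 2 most abundant uncalled; the rule genes; in the strain tests up to 5 calls in each direction; and in the neighbours the rule genes, the genes above and up to 5 calls in each direction. Other genes are marked as chosen after their values were seen. Promoters were matched by symbol in RefSeq (GRCm38.p6). Whitelist barcodes shared by sections (2016 to 2793) name array positions and not cells. Some items are not reported here.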

Additional observations from a re-analysis of the deposited data

Results flagged for a closer look

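Among 59 named genes and both position measures, 6 genes had a section whose log2 ratio (CTL-macrophage over macrophage-only) stood apart from the other 3 by Dixon's test, which chance gives for about 1 in 20 groups of 4. H2-Ab1 was at 1.43 in CC080F1 replicate 2 against 0.41 to 0.57 in the others, and Ccr2 at 0.93 there against 0.31 to 0.40. H2-K1 was at 0.15 in the same section against -0.05 to -0.04. Iigp1 was at 0.61 in CC075F1 replicate 1 against 1.02 to 1.07, Trib3 at -1.15 in CC075F1 replicate 2 against -0.74 to -0.69, and Esam at 0.78 in CC080F1 replicate 1 against 1.22 to 1.25. Each of these but H2-K1 kept its direction in all 4 sections.

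The class effect on Rsad2 differed between strains, by -1.38 on the log2 scale (CC075F1 minus CC080F1, adjusted p = 0.00242 in edgeR), the ratio being -0.87 and -0.78 for the CC075F1 sections but 0.43 and 0.63 for those of CC080F1. The DESeq2 Wald test called no gene for this difference.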

How the results depend on the processing

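The class comparison gave 407 genes higher and 352 lower. The direction of every called gene that could be fitted was kept under the other tools, filters, depth strata and left-out sections, and counts depended on them. These runs mostly reuse the same spots. With changed T cell markers it was kept in 569 of 580 called genes with Cd3e in place of Thy1, 671 of 713 with Cd8a alone and 755 of 759 with Thy1 alone. Counts higher and lower were 103 and 76 with the DESeq2 Wald test, 738 and 200 with library size alone, 281 and 185 with limma, 290 and 212 with an equal-number draw of spots, 48 and 53 with Cd3e in place of Thy1, 243 and 262 with Gzmb added, 25 and 48 with Cd8a alone, and 616 and 518 with Thy1 alone. Leaving out a section gave 160 to 427 higher and 113 to 373 lower, lowest without CC075F1 replicate 2, and 216 lower without CC080F1 replicate 2. With no replicate block (without the section pairing), 0 genes were called in edgeR, with 352 of 10631 at an unadjusted p under 0.05. Among neighbours (450 and 366) the counts were 98 and 81 with the Wald test, 683 and 642 with no filter, 271 and 221 with limma, 239 and 186 matched on edge steps, and 75 and 234 in neighbours without Thy1 and Cd8a UMIs. With no replicate block 0 were called, with 190 of 12439 at an unadjusted p under 0.05. Leaving out a section gave 165 to 555 and 139 to 415, with 165 and 139 without CC075F1 replicate 2 and 247 and 187 without CC080F1 replicate 2. The strain difference in class effect (1 gene) gave 2 with DESeq2 size factors, 2 with no filter, 2 with the replicate block, 0 with the Wald test (16 at an unadjusted p under 0.05) and 5 to 38 without a section. Rsad2 was called in all of these but the Wald test. The strain comparison of CTL-macrophage spots (4 genes) gave 8 with DESeq2 size factors, 9 with the Wald test, 105 with no filter, 179 with same-numbered sections as a replicate block, and 11 to 328 without a section, the most without CC075F1 replicate 1, so its counts are set by single sections. Neighbour share and edge distance kept their direction in all runs, at 1.602 to 4.466 percentage points and -2.95 to -1.77 steps without a section, and no exact p was under 0.25. Hba-a1 turned to 0.091 with Thy1 alone. The cause of these shifts was not tested. With 30 and 40 CTL-macrophage spots in the CC080F1 sections, genes with few UMIs rest mostly on CC075F1.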
